A study of Mus musculus with 12 samples.

Results

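The Wnt ligands and their receptors were followed as a family of 34 genes in the mouse osteosarcoma lines Dunn and LM8. The family held 19 Wnt ligands, 10 Frizzled receptors, the co-receptors Lrp5 and Lrp6, and the alternative receptors Ror1, Ror2 and Ryk. Members were taken by name, as complete gene families and without regard to their signal, and all 34 were found through 41 probes among the 20144 genes that the probes of the array could be matched to. The study compared Dunn, an osteoblastic mouse osteosarcoma line of low metastatic activity, with LM8, a subline of higher metastatic activity derived from Dunn by selection in animals, each early and late in serial culture. The 4 groups were Dunn at passage 25 (early Dunn), Dunn at passage 86 (late Dunn), LM8 at passage 24 (early LM8) and LM8 at passage 91 (late LM8), with 3 arrays each and 12 in all. All groups were grown in the same medium with serum and antibiotics, and the labels name no other agent and no engineered allele. Each line is 1 lineage, so a difference between LM8 and Dunn belongs to this pair of lines, and the sources used here do not say whether the 3 samples of a group came from separate cultures. The p-values therefore measure the spread between these samples, which may be technical.

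Wnt proteins are secreted, lipid-modified ligands that bind a Frizzled receptor at the cell surface. When Lrp5 or Lrp6 joins the complex, the destruction of β-catenin is halted and TCF/LEF factors turn on target genes (the canonical pathway), whereas Ror1, Ror2 and Ryk take part in responses that do not need β-catenin. In bone, canonical signaling favors the formation of osteoblasts from their precursors and is held in check by secreted antagonists such as Dkk1 and sclerostin.

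Signals are given as log2 values relative to the 75th percentile of their own array, so 0 is the signal of a rather bright probe and each unit is a 2-fold step. A gene is represented by its brightest probe, levels are compared between groups and never between genes, and a signal counts as measured where the extraction software marked it well above background. The 75th-percentile signal ran from 253 to 1699 intensity units over the 12 arrays, and 39.4% to 59.8% of probes were well above background. Both Dunn arrays of slide 1 stood apart: probes not above background read 10.5 and 13.2 there (median) against 2.64 to 4.90 on the other arrays, and the early Dunn array of slide 1 had a local background of 87 against 22.5 to 34. Each slide held 1 array of every group, always in the same position, so group and position on the slide cannot be told apart. The osteoblast-lineage markers Runx2, Sp7, Alpl, Col1a1, Col1a2, Ibsp and Spp1 were well above background in all 4 groups. The epithelial markers Cdh1 and Krt8 were so on no array, and Epcam on 1 late Dunn and 1 early LM8 array. Of the 7 osteoblast-lineage markers, Alpl, the alkaline phosphatase of bone-forming cells, was called higher in LM8 by the rule given below (log2 1.01 ± 0.37 SE). The bone matrix genes Spp1 (-0.96 ± 0.33) and Ibsp (-0.83 ± 0.27) had differences toward lower levels in LM8 that stayed under 2-fold, and the other 4 markers differed by -0.41 to 0.31. Of the markers of other cell types, Csf1r, a receptor of macrophages, was well above background on all 12 arrays and differed by 0.01 ± 0.27 SE between the lines, while Ptprc, the general leukocyte antigen, was so on 1 array each of early and late LM8. The endothelial marker Pecam1 was well above background on 2 late Dunn, 2 early LM8 and 3 late LM8 arrays, and Cdh5 on none. The chondrocyte marker Col2a1 was bright on all 12 arrays (group means 5.72 to 6.80, difference -0.88 ± 0.23 SE). Sox9 was well above background on 3 of 6 Dunn and all 6 LM8 arrays (0.57 ± 0.46), and Acan on 1 Dunn, 1 early LM8 and 3 late LM8 arrays (-0.55 ± 0.65). The part of these markers in the Wnt results was not tested.

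In these cells 21 of the 34 members were well above background on all 3 arrays of at least 1 group, and 16 of them in every group. Among the ligands, Wnt1, Wnt4, Wnt5b, Wnt6, Wnt10a and Wnt10b were measured in all 4 groups, and Wnt11 in all but early Dunn, where 2 of 3 arrays passed. Wnt7b, Wnt8b and Wnt9a were well above background on all 6 LM8 arrays but on only 1 to 3 of the 6 Dunn arrays. The pooled fitted differences of Wnt7b and Wnt9a were under 2-fold and neither was called, so their detection is not read as a higher level in LM8. Early Dunn arrays also had fewer of all probes well above background than the arrays of the other groups. The other 9 ligands, among them the classical canonical ligand Wnt3a and the noncanonical ligand Wnt5a, were not measured in any group, and 7 of them were well above background on no array at all. Among the receptors, Fzd1, Fzd2, Fzd4, Fzd5, Fzd7, Fzd8 and Fzd9, both co-receptors and Ryk were measured in every group. Fzd3, Fzd6, Fzd10 and Ror2 were well above background on none of the 12 arrays, and Ror1 was measured on 11. These are bulk RNA samples, so fewer expressing cells and less RNA per cell cannot be told apart.

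**Figure D1:**
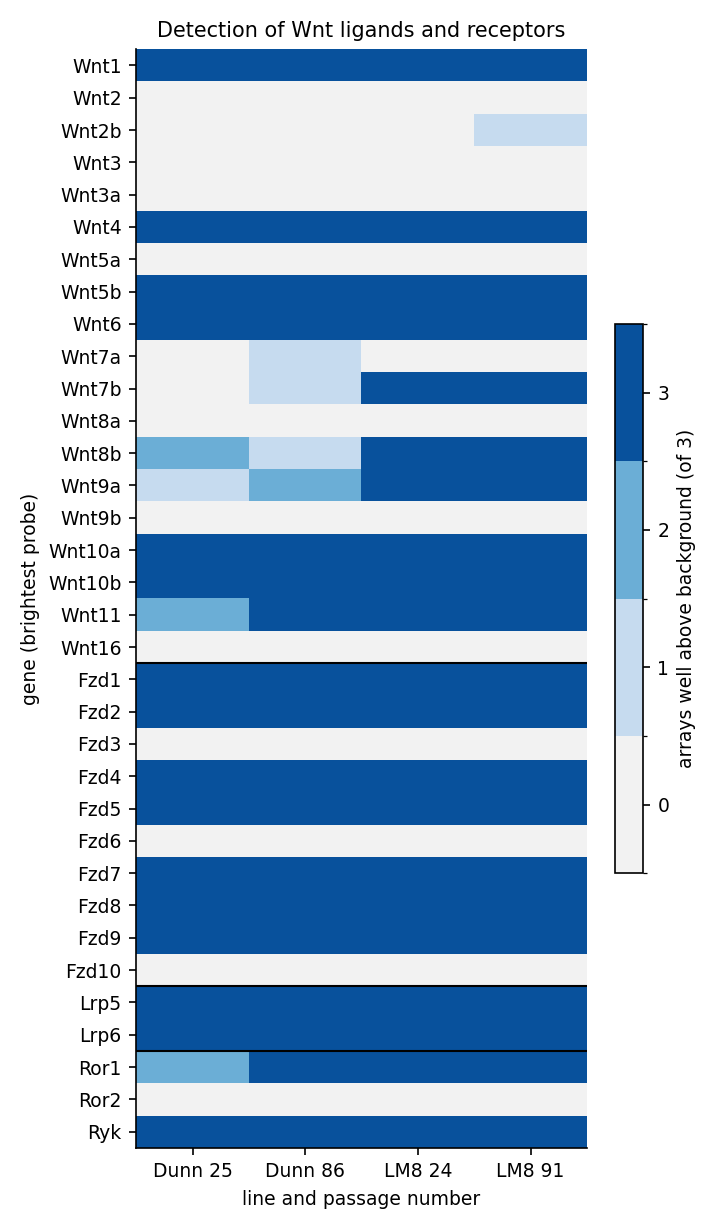
Number of arrays (0 to 3, color scale) on which the brightest probe of each of the 34 members (rows) was well above background, for each line and passage number (columns), with lines separating ligands, Frizzled receptors, co-receptors, and Ror and Ryk. The 16 fully dark rows are the members measured in every group. The number of members with all 3 arrays is 16 in early Dunn, 18 in late Dunn and 21 in each LM8 group. Of all probes, 39.4% to 51.4% were well above background on the early Dunn arrays, 53.3% to 59.7% on the late Dunn and 53.8% to 59.8% on the LM8 arrays.

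The first question was which members differ between the metastatic subline and its parent when early and late passages are pooled, 6 arrays against 6. A member was called when its brightest probe differed more than 2-fold with a Benjamini-Hochberg adjusted p under 0.05 over all probes (limma) and was well above background on all 3 arrays of at least 1 group compared. With this rule 8 of 34 members (23.5%) were called, against 10.9% of all genes tested. Wnt1, Wnt8b, Wnt10b, Wnt11 and Fzd7 were higher in LM8 (4.19% of all genes were called higher), and Wnt4, Fzd5 and Ror1 were lower (6.68% called lower). This split of 5 and 3 is that of 75th-percentile scaling and became 8 higher and 0 lower in the unscaled table, as described at the end. The median log2 difference of all probes was -0.80, and that of the 34 members -0.90. These medians include probes at background. Over the measured probes the median was -0.25 and over the 21 measured members -0.17, a description only, since a member could be measured through its higher group alone. Over the 15080 probes well above background on every array it was -0.32, a shift against which the values below can be read.

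**Figure D2:**
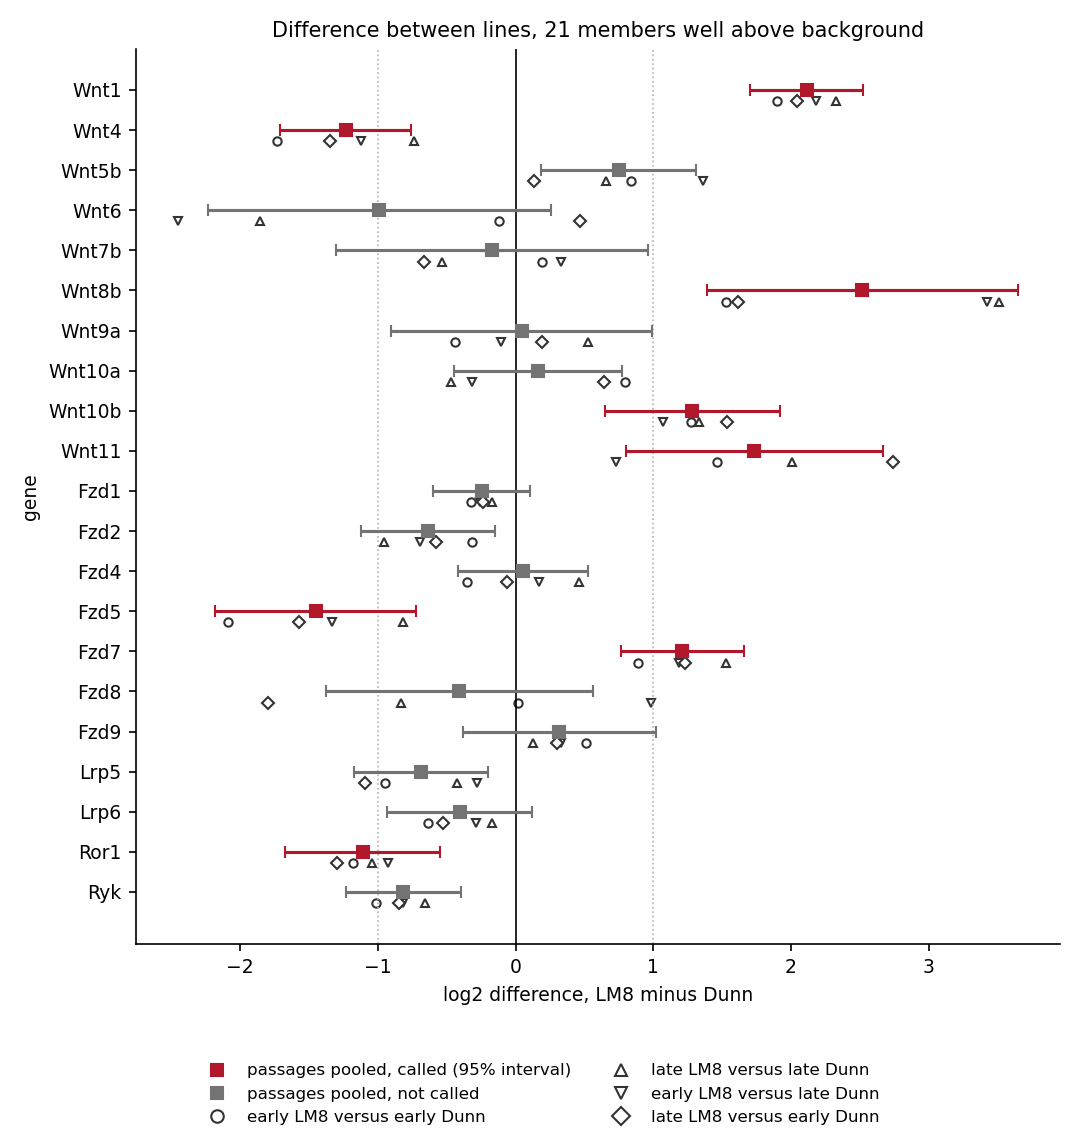
Log2 difference between LM8 and Dunn (x axis, above 0 higher in LM8) for the 21 members well above background in at least 1 group (y axis). Squares give the pooled comparison with its 95% interval (red: called), open symbols the 4 comparisons of single passages, and dotted lines a 2-fold difference; the 5 values of Wnt1 all lie past 2-fold, between 1.90 and 2.33.

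Wnt1, the founding canonical Wnt ligand, was higher in LM8 by a similar amount at every passage. The arrays read -2.74, -2.27 and -2.06 in early Dunn and -2.82, -2.54 and -2.58 in late Dunn (slides 1 to 3). In LM8 they read -0.23, -0.51 and -0.64 at early and -0.17, -0.21 and -0.56 at late passage. Every LM8 array lay above every Dunn array by more than 1 log2 unit. Pooled, Wnt1 was 4.33-fold higher in LM8 (log2 difference 2.11 ± 0.19 SE, adjusted p = 2.00e-05), and within the 3 slides the difference was 2.58, 2.04 and 1.72. A dimmer probe of Wnt1 was well above background on all 6 LM8 arrays and on none of the Dunn arrays.

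Wnt10b, a ligand that favors bone formation over fat, was also higher in LM8. Early Dunn arrays read 0.26 and 0.59 (slide 2 was left out as an outlier spot, n = 2) and late Dunn arrays -0.11, 0.75 and 1.25. Early LM8 read 1.17, 1.60 and 2.32 and late LM8 2.06, 1.79 and 2.04. The lowest early LM8 array lay below the highest late Dunn array, so the lines overlapped on 1 array each. The pooled difference was 2.43-fold (log2 1.28 ± 0.29 SE, adjusted p = 0.0127). Without the 4 arrays of slide 1 it was 1.08 (adjusted p = 0.0735) and without the 2 Dunn arrays of that slide 0.97 (adjusted p = 0.0540), so the call was lost both times.

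Wnt1 and Wnt10b are immediate neighbors on chromosome 15, on opposite strands, with 0 genes listed between them. The other neighboring members were Wnt6 and Wnt10a on chromosome 1, and Wnt3a with Wnt9a and Wnt9b with Wnt3 on chromosome 11. Of those on chromosome 11 only Wnt9a was measured in any group. Whether neighboring members change together was not tested. Their promoters are shown because both genes were called higher in LM8. The 250 bases before each start are given 5′ to 3′ on the strand of the gene (RefSeq, GRCm38.p6), at chr15:98789607-98789856 (plus strand) for Wnt1 and chr15:98778151-98778400 (minus strand) for Wnt10b, with CpG dinucleotides in capitals.
Wnt1: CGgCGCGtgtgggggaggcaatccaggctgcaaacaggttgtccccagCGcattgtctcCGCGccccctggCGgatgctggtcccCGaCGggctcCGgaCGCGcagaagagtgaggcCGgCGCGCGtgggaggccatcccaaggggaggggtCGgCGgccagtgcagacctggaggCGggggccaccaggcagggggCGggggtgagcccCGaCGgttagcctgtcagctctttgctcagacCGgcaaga
Wnt10b: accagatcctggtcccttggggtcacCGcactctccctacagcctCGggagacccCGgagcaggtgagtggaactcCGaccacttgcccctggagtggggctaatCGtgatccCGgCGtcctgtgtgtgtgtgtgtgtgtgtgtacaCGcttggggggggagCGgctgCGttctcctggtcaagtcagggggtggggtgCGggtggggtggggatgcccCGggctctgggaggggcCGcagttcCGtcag
Both are CpG-rich. The Wnt1 window holds 23 CpG and the Wnt10b window 14. With the 50 bases after the start included, they hold 26 and 18, against a median of 7 over all 32851 promoters of that length. Of these promoters 83.1% hold fewer CpG than that of Wnt1 and 70.3% fewer than that of Wnt10b. The members called lower hold 51 (Wnt4), 38 (Fzd5) and 10 (Ror1), so CpG content is not particular to this pair.

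Wnt8b, a ligand best known from the embryonic forebrain, was higher in LM8, from a parent level at the edge of detection. Early Dunn arrays read -3.89, -4.64 and -3.27 and late Dunn -6.38, -6.30 and -4.79, and of these 6 signals only 2 early and 1 late were well above background. LM8 read -2.70, -2.79 and -1.72 at early and -2.82, -2.41 and -1.72 at late passage, well above background on all 6 arrays. The groups did not overlap, and the fitted difference, which rests on Dunn readings of which 3 of 6 were not well above background, was 5.73-fold (log2 2.52 ± 0.52 SE, adjusted p = 0.00722). A second probe had its 3 LM8 arrays well above background at each passage and only 1 of 6 Dunn arrays. That 1 array, late Dunn on slide 1, read above all 6 LM8 arrays, so the lines overlapped on this probe. It is an array that stands apart. The remaining Dunn arrays read below all LM8 arrays on this probe, at signals not well above background. With normexp background correction the pooled difference was 0.49 and no longer called.

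Wnt11, a mostly noncanonical ligand of cell movements in the embryo, was higher in LM8, with its highest readings in late LM8. Early Dunn arrays read -4.78, -4.40 and -4.45 and late Dunn -2.57, -4.44 and -4.42, where the array of slide 1 is the one that stands apart. LM8 read -3.03, -3.06 and -3.16 at early and -1.44, -1.61 and -2.35 at late passage. Apart from that 1 late Dunn array, all LM8 arrays lay above all Dunn arrays. The pooled difference was 3.33-fold (log2 1.74 ± 0.43 SE, adjusted p = 0.0170), and on the log2 scale 1.88 without the arrays of slide 1 and 1.99 without only its Dunn arrays. With normexp it was 0.27 and not called.

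Wnt11 was the 1 member called between the lines with a match to the TCF/LEF core motif in its promoter. The letters CTTTGAA and CTTTGAT were searched on both strands. Of the 32851 promoters of 300 bases, 8.65% hold at least 1 match. Of the 24 members with a RefSeq promoter, Wnt5b and Wnt11 held a match. The first of the 2 Wnt11 promoters carries it on the minus strand, starting 51 bases before the start, and its 250 upstream bases at chr7:98834862-98835111 (plus strand, GRCm38.p6) are shown with the match in capitals.
Wnt11: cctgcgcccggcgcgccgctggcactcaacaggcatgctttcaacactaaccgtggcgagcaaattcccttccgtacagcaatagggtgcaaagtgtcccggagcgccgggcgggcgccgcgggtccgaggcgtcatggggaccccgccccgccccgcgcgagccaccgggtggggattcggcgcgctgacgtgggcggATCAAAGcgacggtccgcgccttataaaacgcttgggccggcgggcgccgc
The table held no promoter for Wnt5a, Wnt7b, Wnt8a, Wnt10a, Fzd2, Fzd3, Fzd6, Fzd8, Lrp5 and Lrp6. A match is a description of these letters and says nothing on binding.

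Wnt4, a ligand with roles in kidney and gonad formation that also promotes osteoblast maturation, was the called ligand that was lower in LM8. Dunn read 2.84, 2.39 and 3.06 at early and 2.21, 2.05 and 2.20 at late passage. LM8 read 1.11, 0.87 and 1.11 at early and 1.40, 1.36 and 1.49 at late passage. All 6 LM8 arrays lay below all 6 Dunn arrays, 2.35-fold in the pooled fit (log2 -1.23 ± 0.22 SE, adjusted p = 0.00306), with -1.27, -1.11 and -1.33 within the slides. With normexp the difference was -0.84, under 2-fold.

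**Figure D3:**
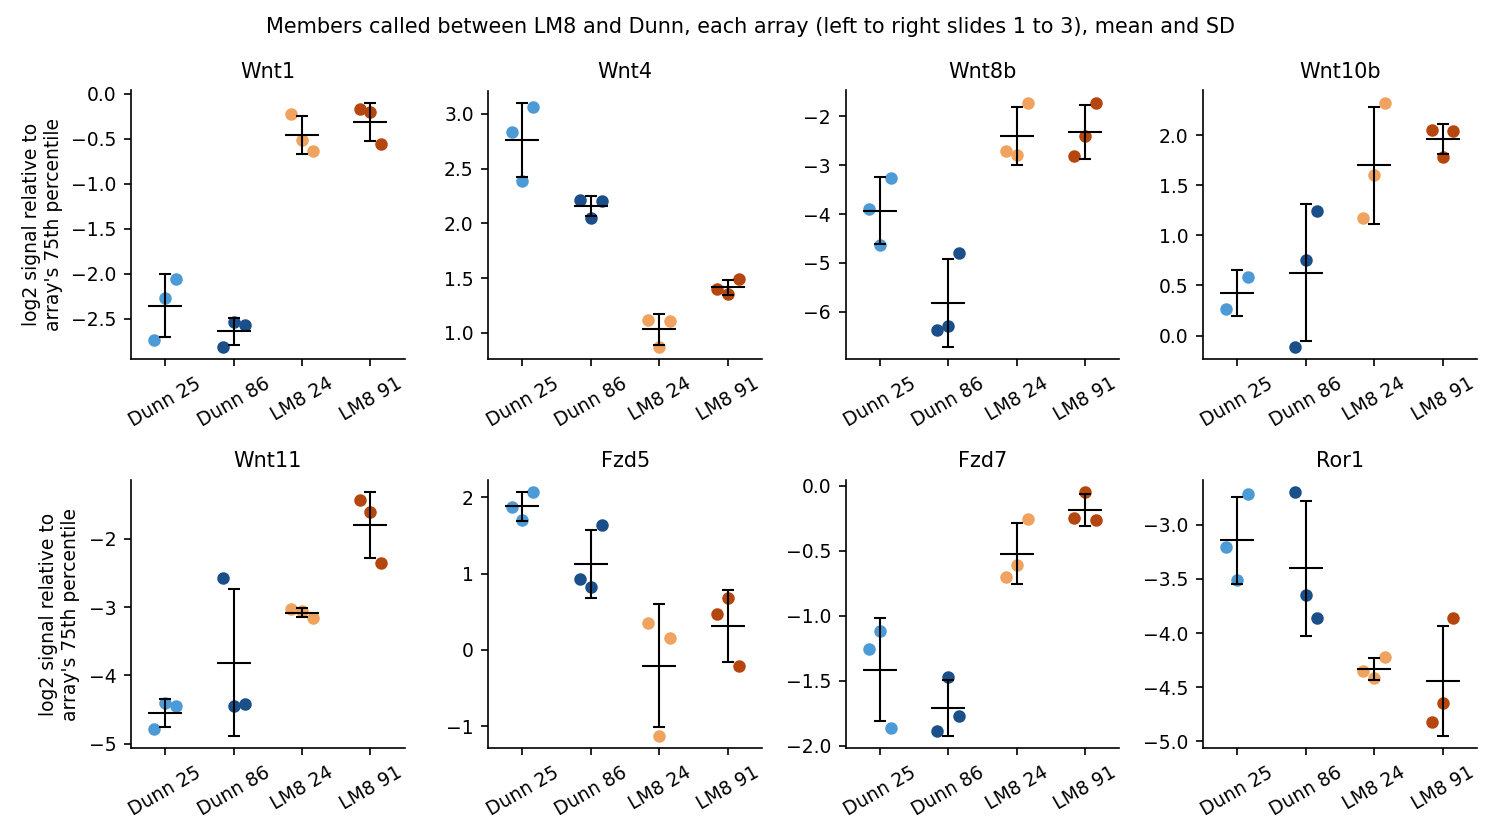
Log2 signal relative to the array's 75th percentile (y axis) of the 8 members called between LM8 and Dunn with passages pooled, by line and passage number (x axis). Dots are single arrays, slides 1 to 3 from left to right, and bars give the mean and SD (n = 3, but n = 2 for Wnt10b in Dunn at passage 25); Wnt1, Wnt4, Wnt8b, Fzd5 and Fzd7 show no overlap between the lines.

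The remaining ligands did not pass in the pooled comparison. For Wnt5b, a ligand of the Wnt5 subfamily expressed in cartilage, the difference was 0.75 (95% interval 0.19 to 1.31, adjusted p = 0.0360), under 2-fold. Wnt6 differed by -0.99 (-2.24 to 0.25) and its neighbor Wnt10a by 0.16 (-0.45 to 0.77), and their values at each passage are given below. Wnt7b (-1.30 to 0.96) and Wnt9a (-0.90 to 0.99) had intervals that reached to nearly 2-fold or past it on both sides. The 13 members without a measured group gave fitted differences from -2.56 to -1.30, all toward LM8 being lower. Of these, 12 would have passed fold and adjusted p, but they are readings of probes at background, where both Dunn arrays of slide 1 read high, and they carry no fold.

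Among the Frizzled receptors, Fzd7, which can act in both canonical and noncanonical signaling, was higher in LM8. Dunn read -1.26, -1.12 and -1.87 at early and -1.89, -1.47 and -1.78 at late passage. LM8 read -0.70, -0.61 and -0.26 at early and -0.25, -0.05 and -0.26 at late passage. The lines did not overlap (2.31-fold, log2 1.21 ± 0.21 SE, adjusted p = 0.00235), and the slides gave 1.10, 0.97 and 1.56. A second, much dimmer probe was well above background on 5 of 12 arrays, and the mean of both probes differed by 0.54 (adjusted p = 0.134). With normexp the brighter probe differed by 0.82, under 2-fold.

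Fzd5, a canonical receptor best known from gut and eye, was lower in LM8. Dunn read 1.88, 1.70 and 2.07 at early and 0.92, 0.83 and 1.64 at late passage. LM8 read 0.36, -1.13 and 0.16 at early and 0.47, 0.68 and -0.22 at late passage, with the early array of slide 2 the lowest of all. The lines did not overlap, and the difference was 2.73-fold (log2 -1.45 ± 0.34 SE, adjusted p = 0.0127). The second probe, measured on all 12 arrays, had group means of 0.49 ± 0.58 (early Dunn), -0.66 ± 0.37 (late Dunn), -1.69 ± 0.48 (early LM8) and -1.68 ± 0.23 (late LM8, SD, n = 3 each), the same direction.

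The other measured Frizzled receptors had fitted differences under 2-fold. Fzd1 differed by -0.25 (95% interval -0.60 to 0.11) and Fzd4, the receptor also used by the non-Wnt ligand norrin, by 0.05 (-0.42 to 0.52). On this scale a 2-fold difference lies outside both intervals. In the unscaled table Fzd1 differed by 0.94 and Fzd4 by 1.24. Fzd2 was -0.64 (-1.12 to -0.15, adjusted p = 0.0380), Fzd9, a receptor with a role in osteoblasts, 0.32 (-0.38 to 1.02), and Fzd8 -0.41 (-1.37 to 0.56).

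Neither co-receptor was called in the pooled comparison. Lrp5, whose loss lowers and whose activating changes raise bone mass, read 0.05, 0.17 and 0.51 in early and -0.62, -0.06 and -0.58 in late Dunn. In LM8 it read -0.67, -0.61 and -0.82 at early and -1.11, -0.71 and -0.72 at late passage. All LM8 arrays lay below the early Dunn arrays but overlapped with late Dunn. The pooled difference was -0.69 (-1.17 to -0.20, adjusted p = 0.0307) for Lrp5 and -0.40 (-0.93 to 0.12) for Lrp6. Ror1, a receptor for Wnt5a-type signals, was called lower in LM8. Dunn read -3.21, -3.51 and -2.71 at early and -2.70, -3.65 and -3.86 at late passage, and LM8 read -4.35, -4.42 and -4.22 at early and -4.82, -4.65 and -3.86 at late passage. The highest LM8 array and the lowest Dunn array, both late passage on slide 3, were level (-3.86 each). The difference was 2.16-fold (log2 -1.11 ± 0.26 SE, adjusted p = 0.0130), and it fell under 2-fold with quantile normalization (-0.87) and without slide 1 (-0.85, adjusted p = 0.0990) and turned to 0.08 in the unscaled table. Ryk, an atypical receptor without kinase activity, had a value on 11 arrays (an outlier spot in early Dunn was left out). All LM8 arrays lay below the Dunn arrays, 1.76-fold (log2 -0.81 ± 0.19 SE, adjusted p = 0.0149), which is short of the 2-fold limit.

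Taking each passage separately asked which of these differences were present whatever passages were set side by side. The 4 comparisons share arrays in pairs and also share them with the pooled fit, so their values are not independent of one another. Early LM8 against early Dunn gave 3 called members (8.82%, against 3.46% of all genes), Wnt1 (1.90 ± 0.33 SE) and Wnt11 (1.46 ± 0.29) higher and Wnt4 (-1.73 ± 0.32) lower. Late LM8 against late Dunn also gave 3 (8.82%, against 3.53%), Wnt1 (2.33 ± 0.23), Wnt8b (3.51 ± 0.55) and Fzd7 (1.53 ± 0.23), all higher. Early LM8 against late Dunn gave Wnt1 alone (2.18 ± 0.24, 2.94% of members against 2.64% of genes). Late LM8 against early Dunn, the pair of highest and lowest 75th percentiles on average, gave 10 members (29.4%, against 18.1%). Those 10 were the 8 of the pooled comparison together with Fzd8 (-1.80 ± 0.30, adjusted p = 0.0147) and Lrp5 (-1.09 ± 0.30, adjusted p = 0.0258). In the unscaled table, Wnt4, Fzd5, Fzd8, Lrp5 and Ror1 of these 10 turned to between 0.07 and 0.78, where the median of the probes well above background on every array moved from -0.51 to 1.37. Relative to that median the 75th-percentile values were -0.84, -1.06, -1.30, -0.58 and -0.79. With the slide as a block no member was called in the first 3 of these comparisons, and the counts of all 4 moved to 0 without some single arrays, as listed at the end.

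At the level used by the study, more than 2-fold at an unadjusted p under 0.05 (with the rule on background kept), the counts were 8, 6, 7 and 10 in the same order (13.1%, 10.4%, 7.76% and 19.9% of all genes). Wnt1 and Wnt8b passed higher in LM8 in all 4 comparisons. For Wnt8b only 2 early and 1 late Dunn array were well above background. Its difference between late LM8 and early Dunn turned to -0.26 with normexp. Wnt10b, Wnt11 and Fzd7 passed in 3, Wnt10b and Wnt11 missing early LM8 against late Dunn (log2 1.07 ± 0.49 and 0.73 ± 0.57) and Fzd7 missing early against early (0.89 ± 0.34). Wnt4 and Fzd5 passed lower in 3, both missing late against late (-0.74 ± 0.20 and -0.82 ± 0.37). Against late Dunn Wnt6 passed lower in both comparisons, by -1.86 ± 0.36 in late and -2.45 ± 0.43 in early LM8, while against early Dunn its difference was 0.47 ± 0.48 and -0.12 ± 0.52. Ror1 passed in 2, and Wnt5b, Fzd8, Lrp5 and Ryk in 1 each.

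Serial passage within a line was the second question. In LM8, 1 of 34 members was called between passages 91 and 24 (2.94%, against 2.41% of all genes). This was Fzd8, which fell from -1.48, -1.49 and -1.50 at early to -3.12, -3.46 and -3.35 at late passage. The 3 early arrays had an SD of 0.01, and the late array was lower by 1.64, 1.96 and 1.86 on slides 1 to 3. The fold was 3.53 (log2 -1.82 ± 0.19 SE, adjusted p = 0.00491), and with the slide as a block the adjusted p was 0.0372. Leaving out any single array kept the call (adjusted p up to 0.0389), whereas without slide 1 the difference was -1.91 with an adjusted p of 0.0694, and in the unscaled table -1.44 with 0.0701. In Dunn the readings were -1.68, -1.65 and -1.19 at early and -2.48, -2.42 and -2.54 at late passage, again without overlap (log2 -0.97 ± 0.30 SE, adjusted p = 0.762, and 0.01 in the unscaled table). The passage difference of Fzd8 in LM8 minus that in Dunn was -0.85 (95% interval -1.53 to -0.17, adjusted p = 0.641).

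At the level of the study 2 members passed in LM8 (5.88%, against 4.28% of all genes), Fzd8 and Wnt11. Wnt11 had late arrays that were higher than its early ones by 1.59, 1.44 and 0.81 on slides 1 to 3 (log2 1.28 ± 0.28 SE, adjusted p = 0.0879). In Dunn the same differences were 2.21, -0.04 and 0.02, the first of them from the 2 arrays that stand apart. No other member passed either level in LM8. Wnt5b (-0.70 ± 0.23) and Wnt7b (-0.86 ± 0.28) had late arrays that all lay below the early ones, within 2-fold.

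**Figure D4:**
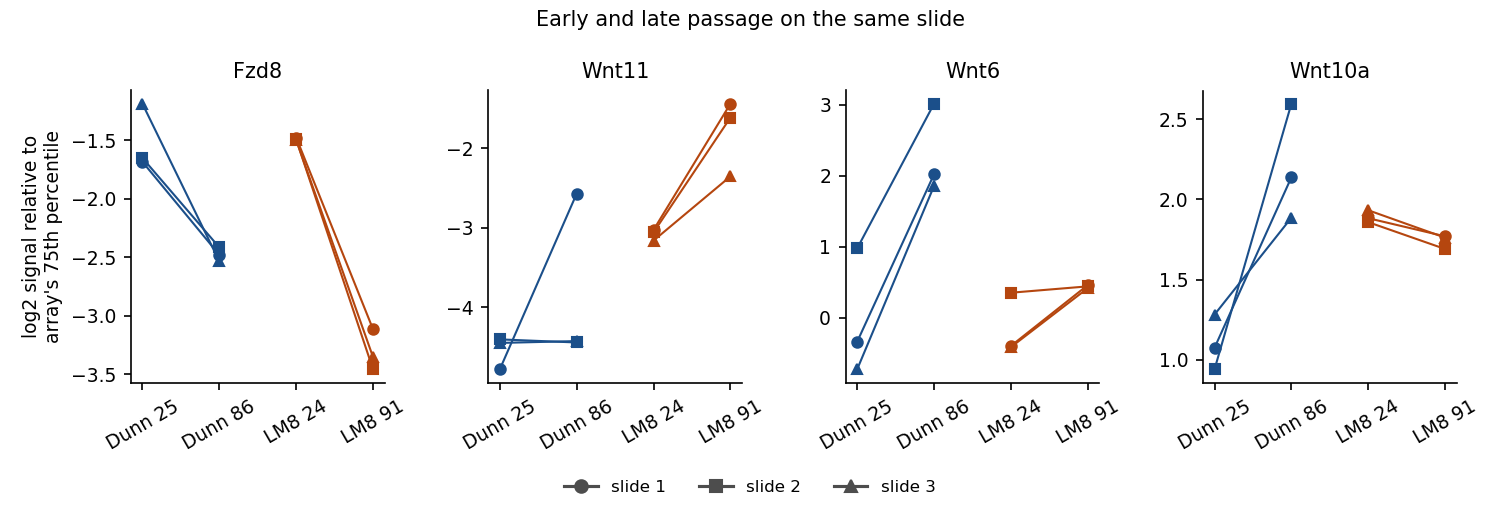
Log2 signal relative to the array's 75th percentile (y axis) of Fzd8, Wnt11, Wnt6 and Wnt10a at early and late passage of Dunn (blue) and LM8 (orange), by line and passage number (x axis), with lines joining arrays of the same slide. On this scale Fzd8 is lower at late passage on every slide in both lines (called in LM8 only, and level in the unscaled table in Dunn), and Wnt6 and Wnt10a are higher in late than in early Dunn on every slide.

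In Dunn, 0 of 34 members were called between passages 86 and 25, where 1 gene in 19967 was (0.00501%). An unadjusted p under 0.05, at any fold, was found for 4 members in limma and for 6 in the methods' t-test. The share of all genes under this limit is not given here, so such counts are not read as a result about the members. At the study's level 2 members passed (5.88%, against 3.93% of all genes). Arrays of the same slide deviated together in Dunn, and with the slide as a block the unadjusted p was under 0.05 for 9 members, 6 of them measured in neither group. With the block again 0 members were called and 2 passed the study's level (against 4.67% of all genes). These were Wnt6 and Wnt10a, ligands encoded close together on chromosome 1 with 2 genes listed between them, 0 of them protein-coding. Wnt6 read -0.34, 0.98 and -0.73 in early and 2.02, 3.01 and 1.86 in late Dunn. Each late array was higher by 2.36, 2.04 and 2.58 than the early array of its slide, while the early readings themselves ran from -0.73 to 0.98 (log2 2.33 ± 0.59 SE, 95% interval 0.86 to 3.79, adjusted p = 0.607, and ± 0.30 SE, adjusted p = 0.198 with the slide as a block). Wnt10a read 1.07, 0.94 and 1.28 in early and 2.14, 2.60 and 1.89 in late Dunn (log2 1.11 ± 0.33 SE, adjusted p = 0.746, and 0.198 with the block). In LM8 Wnt6 read -0.40, 0.35 and -0.41 at early and 0.46, 0.44 and 0.42 at late passage, a difference of 0.59 ± 0.26 SE. Wnt10a read 1.88, 1.86 and 1.93 at early and 1.77, 1.69 and 1.76 at late passage, a difference of -0.15 ± 0.17 SE. On this scale late Dunn was the group with the highest mean in both genes, whereas in the unscaled table Wnt10a was higher than late Dunn by 0.19 in early and 0.43 in late LM8.

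Whether passage acted differently in the lines was tested as an interaction, and 0 of 34 members were called (0.611% of all genes). An unadjusted p under 0.05 was found for 6 members both in limma and in the methods' t-test, again without a share of all genes to set beside it. Wnt10a (-1.26 ± 0.33 SE, adjusted p = 0.252), Wnt6 (-1.73 ± 0.66, adjusted p = 0.732) and Wnt8b (1.98 ± 0.76, adjusted p = 0.742) passed the level of the study, 3 of 34 (8.82%) against 4.64% of all genes. Wnt8b differed between passages by 0.09 in LM8 and by -1.89 in Dunn, where late passage read lower on every slide at signals of which 3 of 6 were not well above background.

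Other genes of the pathway were taken from lists, of which the first holds genes for Wnt secretion and for tuning of the receptors. In the pooled comparison of the lines 4 of its 17 genes were called (23.5%, against 10.9% of all genes). Kremen1, which removes Lrp6 from the surface together with Dkk proteins, was higher in LM8 (log2 2.41 ± 0.60 SE). It was well above background on 1 early Dunn array and on all 3 arrays of each other group. Its Dunn readings had an SD of 1.78 at early and 1.18 at late passage. Lgr6, an R-spondin receptor that was well above background on no Dunn array, was at least 1.59-fold higher, a bound under 2-fold. Its adjusted p of 0.0287 is that of the limma fit, which used Dunn readings at background, and does not test the bound. Porcn, the acyltransferase that makes Wnt ligands fit for secretion, was lower (-1.17 ± 0.38), and its group means were 1.72 ± 0.74 in early Dunn, 0.76 ± 0.47 in late Dunn, 0.40 ± 0.60 in early LM8 and -0.26 ± 0.44 in late LM8 (SD, n = 3). Early LM8 and late Dunn differed by -0.37 ± 0.42 SE (adjusted p = 0.616). Rspo3, a secreted enhancer of Wnt reception, was well above background on all 6 Dunn arrays and on no LM8 array, at least 39.6-fold lower. Its adjusted p of 1.96e-06 is likewise that of the limma fit, with LM8 readings at background, and not of the bound.

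Of 13 secreted antagonists 2 were called (15.4%), both higher in LM8. Sfrp4, a secreted Frizzled-related protein, had group means of -1.83 ± 0.96 and -0.47 ± 0.02 in early and late Dunn and 0.52 ± 0.21 and 1.89 ± 0.26 in early and late LM8 (SD, n = 3), a pooled difference of 2.35 ± 0.48 SE. Frzb, of the same family, was well above background on no Dunn array and on all 6 LM8 arrays (at least 2.87-fold). Of 19 transducers and targets 4 were called (21.1%). Tnfrsf19, a receptor gene induced by Wnt signals (2.98 ± 0.23), the β-catenin cofactor Pygo2 (1.45 ± 0.29) and the Frizzled-bound adaptor Dvl2 (1.37 ± 0.40) were higher. Lef1, a nuclear effector of the pathway, was well above background on 5 of 6 Dunn arrays and on no LM8 array (at least 13.6-fold lower). The medians of the 3 lists were -0.79, 0.28 and 0.39, beside -0.80 for all probes. The measured genes of the lists, 10, 9 and 18 in number, had medians of -0.11, 0.59 and 0.43, beside -0.25 for all measured probes.

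The calls of the smaller line differences depended on whether the arrays were put on a common scale. In the deposited table, which holds the signals without scaling between arrays, the probes well above background on every array had a median difference of 0.87 between LM8 and Dunn in place of -0.32. The pooled count stayed at 8 but the split changed from 5 higher and 3 lower to 8 higher and 0 lower, with Fzd4, Fzd9 and Wnt5b in place of Wnt4, Fzd5 and Ror1. Of the 8 members called on the main scale only Ror1 changed direction there (0.08), while Wnt4 (-0.05) and Fzd5 (-0.26) stayed lower but lost their call. Because 75th-percentile scaling takes 1 constant from each array, a difference relative to the median of the same probes is fixed by construction to be nearly the same on both scales. Relative to the median of the always-bright probes the differences with 75th-percentile scaling were 2.84 for Wnt8b, 2.43 for Wnt1, 2.05 for Wnt11, 1.60 for Wnt10b and 1.53 for Fzd7. They were -0.92 for Wnt4, -1.13 for Fzd5 and -0.79 for Ror1, so that Wnt4 and Ror1 were less than 2-fold below that median.

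**Figure D5:**
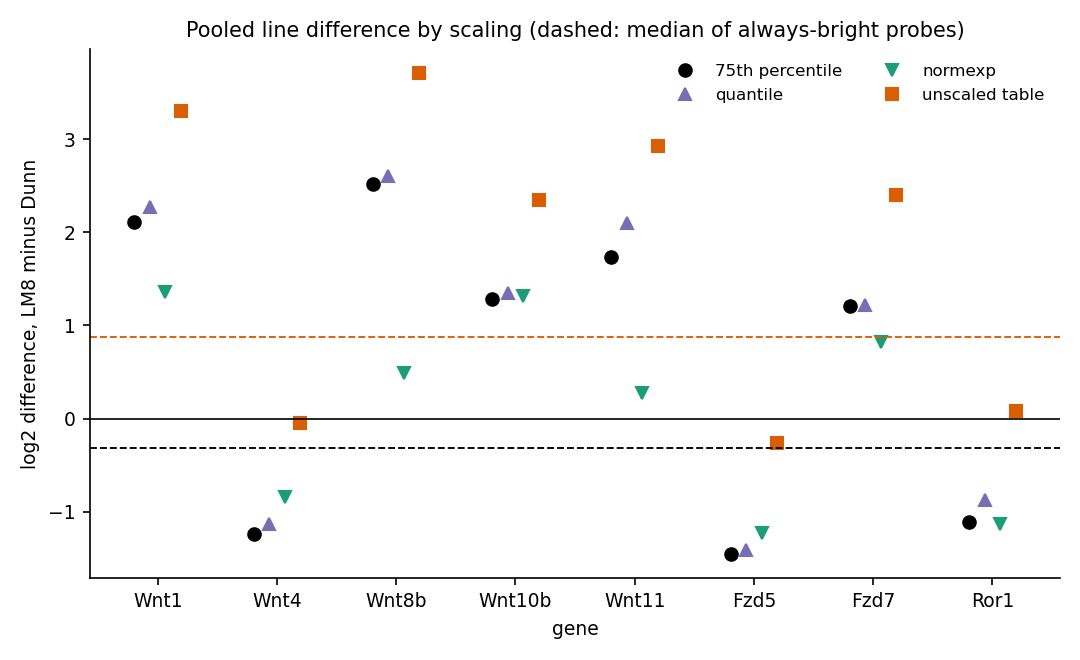
Pooled log2 difference between LM8 and Dunn (y axis) of the 8 called members (x axis) with 75th-percentile scaling (circles), quantile normalization (up triangles), normexp background correction (down triangles) and the unscaled deposited table (squares). Dashed lines mark the median of probes well above background on all arrays with 75th-percentile scaling (black, -0.32) and without scaling (orange, 0.87); Wnt1 lies above 1 in all 4, and Wnt4, Fzd5 and Ror1 lie near 0 in the unscaled table.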

How the data were processed

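The authors cultured thawed early and late cells for 3 further passages, hybridized Cy3-labeled cRNA from 3 samples per condition to Agilent 4x44k v2 mouse arrays, and read them with Agilent Feature Extraction 10.7.3. The deposited scanner files hold 1-color intensity values, of which the processed signal is corrected for background by that software, and the deposited table holds the same intensity values rounded, not scaled between arrays. The gap between table and signal was at most 0.497%.

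Here the processed signal was put on a log2 scale after control spots and outlier spots were left out, spots of a probe were averaged, with each array's 75th percentile taken as 0. Of 39429 probes, 26581 (67.4%) were named through their RefSeq accession. Tests used limma 3.58.1 in R 4.3.3 (lmFit, eBayes), with 1 fit for each comparison on its own groups and Benjamini-Hochberg adjustment over all probes. A bound ("at least N-fold") sets the mean of the measured group against the lowest signal well above background on the other arrays, or the dim probe's own signal where higher. The number of arrays limits the precision. Replicate numbers mark slides, as the scanner files show. Deviations from the group means correlated above 0.1 for all 3 same-slide pairs of early and late Dunn (0.23 to 0.68), so these were taken as paired and the blocked values are given beside that comparison. In each other pair of groups only 1 or 2 of 3 pairs passed 0.1 (range -0.24 to 0.43). Values per array are given for members called in any comparison, and, chosen after their values were seen, for Wnt6 and Wnt10a. The members, pathway lists and markers were chosen with earlier results of these data known. Bglap and Cd68 had no probe matched by symbol. Alternatives were normalization, background correction with normexp (offset 50, on median signals), filters on dim probes, other rules for several probes of a gene, 1 fit over 12 arrays, array weights, the slide as a block, the methods' t-test and leaving out arrays. Leaving out slide 1, or its Dunn arrays, was chosen after seeing the data.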

Additional observations from a re-analysis of the deposited data

Results flagged for a closer look

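1 sample among the members' values lay far from the others of its line. Fzd2, a Frizzled receptor, read 1.30 (log2, relative to the 75th percentile) in replicate 3 of early Dunn, while the nearest of the other 5 Dunn arrays read 2.15. The gap made up 0.788 of the range over the 6 Dunn arrays. Chance flags about 1 in 20 groups, and 37 groups of arrays were checked.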

How the results depend on the processing

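Of the 8 members called between the lines with passages pooled, Wnt1 kept its call under all 13 alternatives, both added ones and all 12 omissions of 1 array. The pooled count of 8 rose to 20 without the requirement of a signal well above background and was 7 to 8 without single arrays. With normexp 6 were called, 2 higher and 4 lower (Wnt1, Wnt10b, Fzd5, Ror1, Wnt7b and Wnt9a), and without slide 1 or its Dunn arrays 6, in both cases without Wnt10b and Ror1. Directions turned in the unscaled table for Ror1 pooled (0.0772) and, in late LM8 against early Dunn, for Fzd5 (0.30), Fzd8 (0.0687), Lrp5 (0.78), Ror1 (0.57) and Wnt4 (0.52). They turned with normexp for Wnt11 in early LM8 against early Dunn (-0.54) and Wnt8b in late LM8 against early Dunn (-0.26). The unscaled table differs from the main scale mainly by 1 constant for each array. In late LM8 against early Dunn this moved the median of the always-bright probes from -0.51 to 1.37. The cause of the turns with normexp was not tested. Over the values of single members 453 stayed on their side of the threshold, 128 lost their call and 8 turned. With the slide as a replicate block the pooled comparison kept 8 calls and passage in LM8 its 1, whereas early against early, late against late and early LM8 against late Dunn fell to 0. The block changed no other count of calls. Members with an unadjusted p under 0.05 went from 4 to 9 in Dunn and from 5 to 8 in LM8, with no share of all genes given beside them.

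Counts in the single comparisons depended on the setting. Early against early (3) gave 9 with array weights, 7 in the unscaled table, 6 with only measured probes tested, 8 at the level of the study, 1 without the Dunn arrays of slide 1 and 0 without slide 1. Without single arrays it ran from 0 to 5, 5 without early Dunn replicate 2, 1 without its replicate 1 and 0 without each other array. Late against late (3) gave 5 with 1 fit, 6 with weights, 5 without the Dunn arrays of slide 1, 1 with the mean of probes, 5 with measured probes and 6 at the level of the study. It gave 5 without late Dunn replicate 1, 1 without its replicate 2 or 3, and 0 without any 1 late LM8 array. Early LM8 against late Dunn (1) gave 6 with 1 fit, 10 with weights, 2 unscaled, 5 without the Dunn arrays of slide 1, 3 with the mean of probes, 2 with the methods' t-test, 3 with normexp, 6 with measured probes, 2 with quantile normalization, 0 with the block, 7 at the level of the study, 5 without late Dunn replicate 1 and 0 without any other array. Late LM8 against early Dunn (10) gave 6 with the t-test, 22 without the background rule and 5 without slide 1. It gave 9 and 10 without early Dunn replicates 1 and 2, 3 without replicate 3, 0 without late LM8 replicate 2 and 1 without either other late LM8 array. Passage in Dunn (0) gave 1 with 1 fit (Wnt6), 4 with weights, 2 at the level of the study and 0 without any single array. Passage in LM8 (1) gave 0 unscaled and without slide 1, 2 with a floor on dim signals, with measured probes and at the level of the study, and 1 without any single array. The interaction (0) gave 6 with weights, 3 at the level of the study and 0 without any single array. Signals not well above background limit Wnt8b and Wnt11 in Dunn and the 13 members measured in no group.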
